A study of Mus musculus with 69 samples.

Results

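The genes described here are 10 contractile and matricellular genes of mouse embryonic stem cells (ESCs), namely Acta2, Tagln, Cald1, Tnc, Thbs1, Vim, Cnn1, Cnn2, Tpm1 and Myl9, out of 16263 genes in the count table. They were picked by name as genes of the actin cytoskeleton and of the SRF type, several of them because their read counts differed between the mutant clones. Their mRNA differences between the lines are therefore given as a description, without p-values, and counts of calls among them are not evidence of a difference. All 10 genes passed the filter on low counts. The study edited both genes that encode the histone variant H3.3, H3f3a and H3f3b, so that lysine 27 of the protein became arginine (H3.3K27R), a residue that cannot be acetylated. The groups were WT J1 cells, a male ESC line from the inner cell mass of a 129S4/SvJae blastocyst, and the mutant lines Mut18 (H3.3K27R #18) and Mut43 (H3.3K27R #43), which were made from J1 cells. Each line gave 2 mRNA-seq and 2 ATAC-seq libraries, described as biological duplicates. All lines were grown on feeder cells and then without them for 2 passages before harvest. Each mutant line is 1 clone, so that an effect of the edit and a difference between clones cannot be told apart in either of them alone.

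Contractile cells build bundles of actin filaments that tropomyosins and caldesmon coat, that calponins and transgelin bind, and that myosin pulls on once its regulatory light chain is phosphorylated. Many of these genes are targets of serum response factor (SRF), which binds the CArG box and is switched on by its cofactors MRTF-A and MRTF-B (Mkl1 and Mkl2) when the pool of free actin monomers shrinks. Matricellular proteins such as tenascin-C and thrombospondin-1 are secreted into the matrix, where they change adhesion rather than carry load. In ESC cultures these genes are expressed well below the nonmuscle actins, and they are also strongly expressed by fibroblasts, the cells commonly used as feeders.

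The depth was nearly equal, with 14992756 to 15143998 counts per mRNA-seq library, and 14061 genes passed the filter. H3f3a was read at 560.2 to 726 CPM (read counts scaled to library size with TMM factors) and H3f3b at 774 to 900.2 CPM, although a count cannot tell an edited transcript from an unedited one. H3f3b was called higher in Mut43 than in Mut18 (log2 fold change 0.19, adjusted p = 0.0402 by edgeR's quasi-likelihood test). ESC markers were high in every library, with a sum of 4377 to 5226 CPM over 12 genes. The first WT library stood apart in fibroblast genes, since 5 of the 19 tested fibroblast markers were more than 2-fold higher in it than in the second WT library. The ratio of the first to the second WT library was 0.921 to 1.14 for the 10 genes. Some fibroblast markers lay in that range too, such as Col1a1 at 1.11 and Mmp2 at 0.944. The part of fibroblasts in the 10 genes was not tested.

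CArG boxes, 10 bases long and a pattern that reads alike on both strands, were found near 5 of the 10 genes. They are printed here because they are the feature of SRF targets that can be read from the sequence. In the RefSeq promoters of the build GRCm38 (250 bases before to 50 bases after a start), 2 of the 8 genes with a window held one, Myl9 and Cnn2, compared with 1.63% of 32851 promoters and 1.31% of the promoters of tested genes. Tagln and Thbs1 had no window in that table. In the ATAC-seq regions within 10000 bp of the 10 genes, 4 of 33 regions held one or more (12.1%), compared with 1.45% of 89596 regions. These regions were longer than most, with a median of 393 bp against 338 bp. Within the central 300 bases of each region the shares were 12.1% and 1.11%. The stretches below are written 5′ to 3′ on the strand of the gene, with the box in capitals.
Tagln, chr9:45936131-45936200, minus strand, box starting at position -112 from the transcript start, outside exons: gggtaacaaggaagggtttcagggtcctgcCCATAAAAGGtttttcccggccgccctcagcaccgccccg
Tagln, chr9:45936028-45936057, minus strand, box starting at position 11 from the transcript start, in an exon: gtgtctttccCCAAATATGGagcctgtgtg
Cnn1, chr9:22100096-22100165, plus strand, box starting at position -66 from an internal transcript start, outside exons: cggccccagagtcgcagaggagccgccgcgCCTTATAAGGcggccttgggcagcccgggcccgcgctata
Myl9, chr2:156775273-156775342, plus strand, box starting at position -117 from the transcript start, outside exons: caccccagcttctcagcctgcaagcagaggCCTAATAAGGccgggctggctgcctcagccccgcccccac
Cnn2, chr10:79988519-79988578, plus strand, box starting at position -56 from the RefSeq start: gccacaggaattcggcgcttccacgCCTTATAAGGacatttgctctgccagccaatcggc
Thbs1, chr2:118110665-118110694, plus strand, box starting at position -1201 from the transcript start, outside exons: ctgccaagatCCTTATTTGGtgatgctttt
A match is a description of the letters and does not show that SRF was bound. TATAAA, the letters of the TATA box, was in 4 of the 10 RefSeq promoters of these genes, those of Vim, Tnc and Cald1. The shares were 13.6% of all promoters and 7.28% of those of tested genes. It began at -32 from the start in Vim, at -186 in Cald1, and at -126 and -205 from the starts of Tnc, which is a single site. GGAATG, the TEAD motif, was in 3 of the 10, those of Cald1, Tpm1 and Acta2, against 14.7% and 12.3%. Both were searched on both strands, and a CArG box can contain the first of them.

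In WT cells the mRNA of the 10 genes differed widely in level. Per kilobase of merged exons, the mean level in WT was highest for Tagln at 114 ± 0.825 CPM per kb (SD, n = 2) and lowest for Cnn1 at 6.65 ± 0.387 CPM per kb. Tpm1 (82.9 ± 0.583), Acta2 (80.1 ± 3.32) and Vim (78.2 ± 4.61 CPM per kb) followed Tagln and lay close together. Then came Cnn2 (67.7), Thbs1 (30.7), Myl9 (24.1), Cald1 (15.1) and Tnc (8.66 CPM per kb), each clear of its neighbours. Cald1 has the longest merged exons, 12041 bases over many isoforms, which lowers its level on this scale. Vim has 4743 bases of merged exons, while its protein-coding transcripts hold 2314 different stretches of 100 bases, which lowers its level too. The order of the genes on this scale thus depends on the length used. The order was the same in the mutants except among Tpm1, Acta2 and Vim. Acta2 was at rank 2 of the 10 in Mut18 and at rank 4 in Mut43.

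All 10 genes lay in the same order in the libraries: both WT libraries above both Mut18 libraries, and both Mut18 libraries above both Mut43 libraries, with no overlap. Over all tested genes 9.57% had that order and 35.0% had both Mut18 libraries below both WT libraries (19.4% for Mut43 below Mut18), but since the genes were picked with these values known, nothing is read from the comparison. In Mut18 their mean levels were 56.4 to 81.9% of WT, and in Mut43 42.1 to 64.6% of WT. In Mut43 they were 65.0 to 86.9% of the level in Mut18. The sum over the 10 genes was 1999 and 1919 CPM in WT, 1386 and 1297 CPM in Mut18, and 1099 and 1027 CPM in Mut43.

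**Figure D1:**
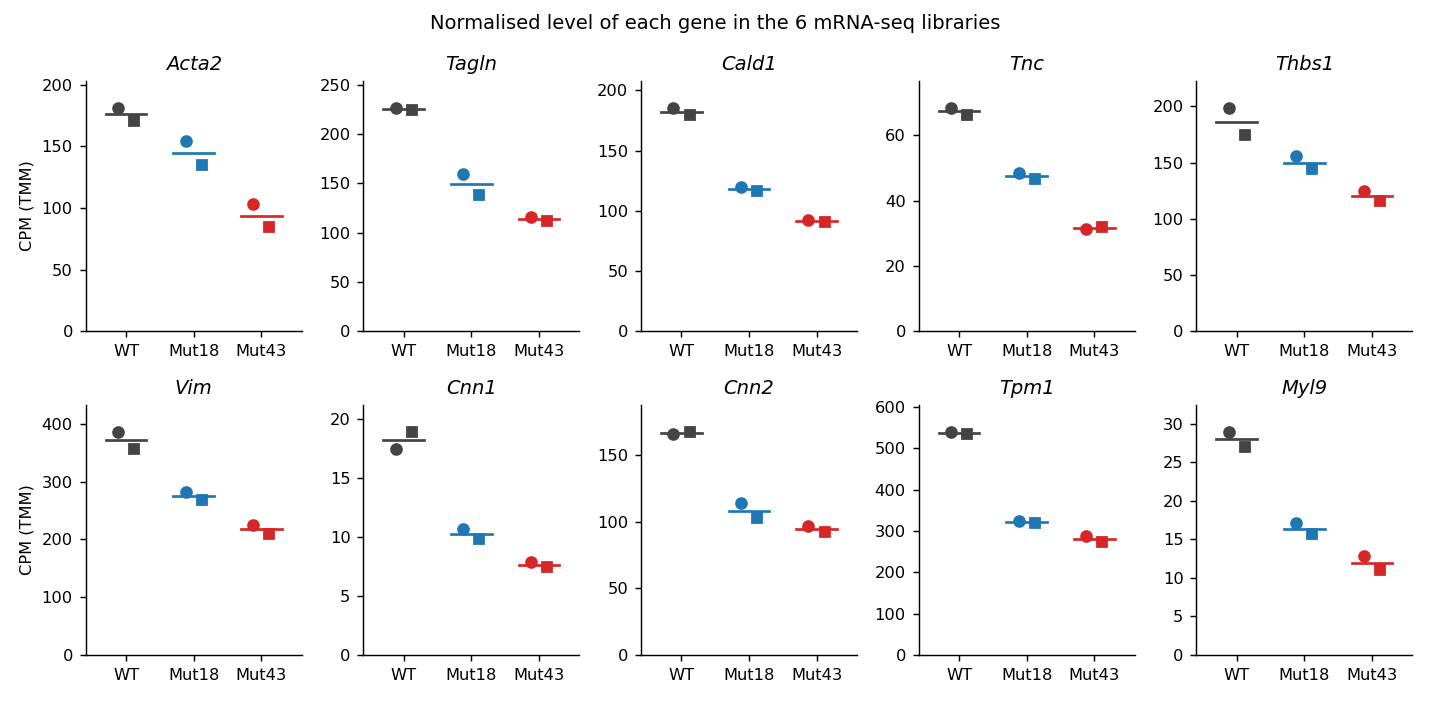
Normalised mRNA level (CPM with TMM factors, linear axis from 0) of the 10 genes in the 6 libraries. Circles are replicate 1, squares replicate 2 and bars the mean of each line, and in every panel the Mut18 points lie below the WT points and above the Mut43 points.

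Acta2 encodes smooth muscle alpha-actin, the actin isoform of contractile filaments, and lies on chromosome 19 of GRCm38 (34241090 to 34255590, minus strand). It was counted at 181 and 171 CPM in WT, 154 and 134 CPM in Mut18, and 103 and 84.2 CPM in Mut43. The clones thus differed more from each other than Mut18 did from WT. The log2 fold change was -0.62 (SE 0.0694) for Mut43 against Mut18 and -0.29 (SE 0.0652) for Mut18 against WT. Between Mut43 and WT it was -0.91 (SE 0.0682).

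Tpm1 encodes a tropomyosin, which lies along the actin filament and controls the access of myosin. With 541 and 535 CPM in WT, 325 and 320.1 CPM in Mut18, and 288 and 272 CPM in Mut43, it was the most abundant of the 10 genes per library. Most of its difference from WT was present in both clones, the reverse of Acta2. Against WT the log2 fold change was -0.74 (SE 0.0429) in Mut18 and -0.94 (SE 0.0433) in Mut43, and -0.20 (SE 0.0439) between the clones.

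Cald1 encodes caldesmon, which binds actin and tropomyosin and inhibits the myosin ATPase. Its levels were 185 and 179 CPM in WT, 120.0 and 116 CPM in Mut18, and 92.7 and 90.8 CPM in Mut43. The spread within each line was small beside the steps between lines. Cald1 had a log2 fold change of -0.63 (SE 0.0467) in Mut18 and -0.99 (SE 0.0481) in Mut43 against WT, and -0.37 (SE 0.0499) between the clones.

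Myl9 encodes the regulatory light chain of smooth muscle and nonmuscle myosin II. It had 28.98 and 26.9 CPM in WT, 17.2 and 15.7 CPM in Mut18, and 12.8 and 11.1 CPM in Mut43. The Mut43 level was 42.6% of WT. The log2 fold change was -1.23 (SE 0.0984) in Mut43 and -0.77 (SE 0.0934) in Mut18 against WT, and -0.46 (SE 0.106) between the clones.

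Tagln, Cnn1 and Cnn2 belong to the calponin family of actin-binding proteins. Tagln encodes transgelin (SM22 alpha), an early marker of smooth muscle differentiation, and had 227 and 224 CPM in WT, 159.7 and 138 CPM in Mut18, and 116 and 112 CPM in Mut43. Its log2 fold change was -0.98 (SE 0.0543) in Mut43 and -0.60 (SE 0.0529) in Mut18 against WT, and -0.38 (SE 0.0559) between the clones. Of the 100-base stretches of the Tagln transcripts, 32.7% also occur in the transcripts of Pcsk7 and of Gm48529, which lie on the opposite strand. Whether the counting used strand is not given in the sources used here, so part of the Tagln counts is uncertain.

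Cnn1, the calponin of differentiated smooth muscle, was the lowest of the 10 genes, with 17.4 and 18.9 CPM in WT, 10.7 and 9.81 CPM in Mut18, and 7.84 and 7.48 CPM in Mut43. Of the 10 genes it had the largest log2 fold change against WT in both clones, -0.83 (SE 0.107) in Mut18 and -1.25 (SE 0.113) in Mut43. Between the clones the log2 fold change was -0.42 (SE 0.123). Cnn2, a more widely expressed calponin, had 166 and 168 CPM in WT, 114 and 103 CPM in Mut18, and 96.5 and 91.9 CPM in Mut43. Its clones lay close together, with a log2 fold change of -0.20 (SE 0.0547) between them and of -0.62 (SE 0.0518) and -0.82 (SE 0.0526) for Mut18 and Mut43 against WT.

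Vim encodes vimentin, the intermediate filament protein of mesenchymal cells. It was measured at 386 and 356 CPM in WT, 281 and 268 CPM in Mut18, and 225 and 209.7 CPM in Mut43. The step from WT to Mut18 and the step from Mut18 to Mut43 were of similar size, with log2 fold changes of -0.43 (SE 0.0483) and -0.34 (SE 0.0498). The log2 fold change of Mut43 against WT was -0.77 (SE 0.0491).

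The matricellular genes were Tnc, which encodes tenascin-C, and Thbs1, which encodes thrombospondin-1, an activator of latent TGF-beta. Tnc had 68.4 and 66.3 CPM in WT, 48.5 and 46.7 CPM in Mut18, and 31.2 and 32.0 CPM in Mut43. The difference between the clones was thus as large as that between Mut18 and WT, with log2 fold changes of -0.59 (SE 0.0706) and -0.50 (SE 0.0643). Thbs1 had 199 and 174 CPM in WT, 156 and 144 CPM in Mut18, and 125 and 116 CPM in Mut43. It changed least against WT among the 10 genes in Mut43, with a log2 fold change of -0.63 (SE 0.0576), and its steps of -0.31 (SE 0.0563) and -0.32 (SE 0.0586) were alike.

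The share of the Mut43 difference that was already present in Mut18 ranged from 31.6% for Acta2 to 78.3% for Tpm1 on the log2 scale. It was 45.8% for Tnc and 49.8% for Thbs1, and 56.2 to 75.3% for Vim, Tagln, Myl9, Cald1, Cnn1 and Cnn2. The comparisons share libraries, so these shares are a description. At an adjusted p-value under 0.05 (quasi-likelihood F-test of edgeR, adjusted over all tested genes by the Benjamini-Hochberg method), all 10 genes were called lower in each clone against WT, and 9 of them in Mut18 without Mut18 replicate 2 or with DESeq2. For a change of more than 2-fold against WT, 3 of the 10 were called in Mut43 and 0 in Mut18. Of all 14061 tested genes, that limit left 1448 in Mut43 (957 of them lower) and 1058 in Mut18 (666 of them lower). Without the limit 23.9% of all tested genes were called lower and 22.9% higher in Mut43, and 21.0% lower and 20.3% higher in Mut18. Between the clones, 7 of the 10 were called, all but Cnn1, Cnn2 and Myl9, while 37 of 14061 genes were called lower (0.263%) and 9 higher (0.064%). The rule used this comparison, so the counts are given without a reading. They rest on all 4 mutant libraries. The number called between the clones was 1 without Mut18 replicate 1, 5 without Mut18 replicate 2, 4 without Mut43 replicate 1 and 1 without Mut43 replicate 2, and it was 0 for a change of more than 2-fold. In each of these settings all 10 genes had a log2 fold change below 0.

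**Figure D2:**
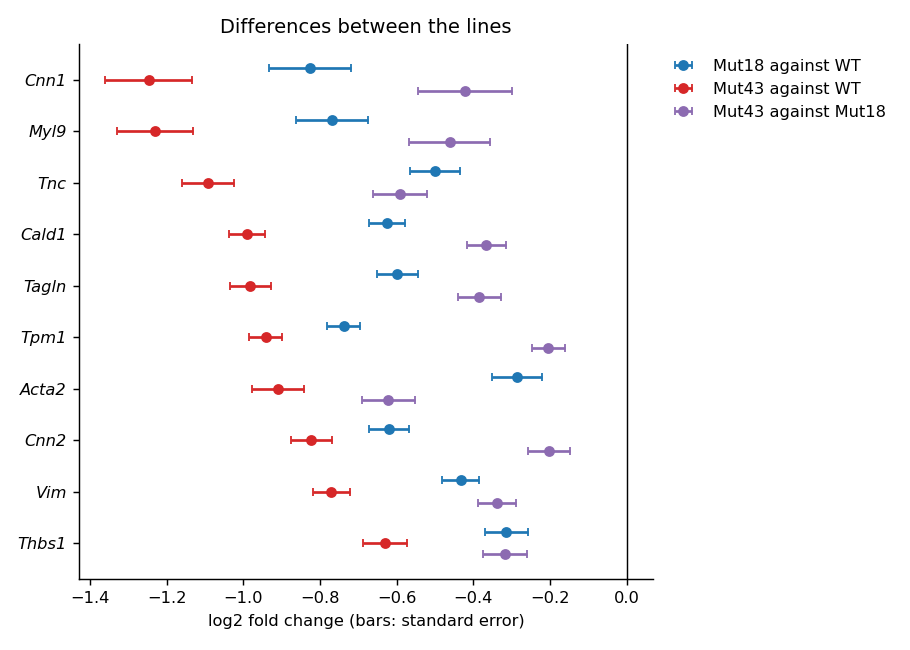
Log2 fold change of each gene (points, with standard errors as bars) in the 3 comparisons between lines. Points for Mut43 against WT lie between -1.25 for Cnn1 and -0.63 for Thbs1, and the distance from Mut18 to Mut43 is widest for Acta2 (-0.62) and narrowest for Cnn2 and Tpm1 (both -0.20).

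The paralogs of these genes did not all move with them. The muscle actins were near the floor of the data and lower in both clones: Actc1, the cardiac actin, had 8.75 and 6.44 CPM in WT, 1.80 and 1.54 CPM in Mut18, and 0.676 and 0.539 CPM in Mut43. Its log2 fold change was -3.63 in Mut43 (SE 0.275, adjusted p = 3.85e-11) and -2.18 in Mut18 (SE 0.227, adjusted p = 1.66e-08) against WT by edgeR. Acta1, the skeletal muscle actin, fell by 1.31 on the log2 scale in Mut43 (adjusted p = 3.08e-06), and Actg2, the enteric actin, had a log2 fold change of -1.98 (adjusted p = 0.000439), both from under 8 CPM. The nonmuscle actins of every cell were far more abundant and moved little. Actb was at 866 CPM per kb in WT and at 89.8% of that level in Mut43 (adjusted p = 0.00235), and Actg1 was at 105% of WT (adjusted p = 0.194).

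Among the tropomyosins, Tpm4 was the companion of Tpm1. It had 369 and 366 CPM in WT, 201 and 206 CPM in Mut18, and 169 and 165 CPM in Mut43, and was called between the clones (log2 fold change -0.28, SE 0.0452, adjusted p = 0.00128). Tpm2 was at 70.0% of WT in Mut43 (adjusted p = 1.77e-06), and was not called between the clones (adjusted p = 0.0755). Tpm3 was at 95.4% (adjusted p = 0.19). In the calponin family, Cnn3 was at 69.3% of WT in Mut43 (adjusted p = 2.04e-10) and Tagln2 at 88.9% (adjusted p = 0.00872). Tagln3, a neuronal relative, was at 81.7% and was not called (adjusted p = 0.146). None of the 100-base stretches in the transcripts of Acta2, Tpm1, Cnn1 and Cnn2 occurred in the transcripts of another gene, these paralogs included.

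The wider contractile set of SRF targets held 32 other genes, of which 31 were tested. This list and those that follow were chosen with earlier results of these data known, so their counts are a description. In Mut43 against WT, 24 were called lower, 2 higher and 5 not (percent called over all genes 46.8%), and the median log2 fold change was -0.53, compared with -0.0032 over all tested genes. In Mut18 against WT, 21 were called lower and 2 higher (41.3% over all genes), with a median of -0.31. Between the clones 2 were called, both lower (0.327% over all genes), with a median of -0.083. Among those with at least 5 CPM the largest fall was that of Zyx, which encodes the focal adhesion protein zyxin. It fell from 114 and 125 CPM in WT to 51.1 and 47.2 CPM in Mut18 and 36.4 and 36.2 CPM in Mut43 (log2 fold change between the clones -0.44, SE 0.0693, adjusted p = 0.00128). Flna, which encodes the actin crosslinker filamin A, had 845 and 788 CPM in WT and 473 and 458 CPM in Mut43 (log2 fold change -0.81, adjusted p = 5.0e-14). Des, the muscle intermediate filament desmin, and Lima1, an actin crosslinker also called EPLIN, went the other way, with log2 fold changes of 0.43 (adjusted p = 0.0018) and 0.38 (adjusted p = 2.3e-07) in Mut43 against WT. Other genes of differentiated smooth muscle varied in level: Smtn, which encodes smoothelin, had 45.55 to 51.2 CPM and was not called in Mut43 against WT (-0.14, adjusted p = 0.078), Myh11, a smooth muscle myosin heavy chain, had 0.532 to 1.49 CPM, and Mylk and Myocd did not pass the filter.

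SRF also drives a second set, the immediate-early genes, whose promoters it shares with ternary complex factors. Of 10 such genes, 7 were called lower in Mut43 and 6 in Mut18 against WT (23.9% and 21.0% of all tested genes), none was called higher, and none was called between the clones (0 also at an unadjusted p under 0.05). The counts against WT rest on few libraries. That of Mut43 was 2 without Mut43 replicate 1 and without Mut43 replicate 2, 5 without WT replicate 1, of which 4 were lower, and 3 with DESeq2. That of Mut18 was 2 without Mut18 replicate 2, 4 without Mut18 replicate 1, 4 without WT replicate 1, of which 3 were lower, and 2 with DESeq2. Srf itself was at 61.7 and 69.1 CPM in WT and 53.7 and 55.9 CPM in Mut43 (log2 fold change -0.25, adjusted p = 0.0025). Junb, an AP-1 subunit, had 48.6 and 50.8 CPM in WT and 32.7 and 32.9 CPM in Mut43 (log2 fold change -0.60, adjusted p = 7.3e-07). Mcl1 and Ier2 differed by -0.17 and -0.14 on the log2 scale (adjusted p = 0.0021 and 0.042). Fos and Fosb were also called, but stood at 13.9 and 7.845 CPM in the first WT library and at 2.15 and 1.04 CPM in the second, next to 2.28 to 2.49 and 0.672 to 1.60 CPM in the mutants.

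Regulators that act upstream of SRF or beside it were mixed. Of 23 tested genes, 13 were called lower and 4 higher in Mut43 against WT, and 11 and 5 in Mut18, with medians of -0.21 and -0.19. Over all tested genes 23.9% were called lower and 22.9% higher in Mut43, and 21.0% and 20.3% in Mut18. The 16 calls in Mut18 were 9 with DESeq2 and without Mut18 replicate 1. Mkl1 was at 31.1 and 34.6 CPM in WT and 28.2 and 28.5 CPM in Mut43 (log2 fold change -0.21, adjusted p = 0.037), and Mkl2 was not called in Mut43 (-0.17, adjusted p = 0.11). Rhoa, the GTPase that promotes actin assembly, was not called in Mut43 (0.04, adjusted p = 0.44), nor was Yap1 (-0.10, adjusted p = 0.16), while Cfl1, which encodes the actin-severing protein cofilin, was at -0.28 (adjusted p = 8.7e-06). Tgfb2, a ligand that induces contractile genes in fibroblasts, was the regulator called between the clones. It had 20.1 and 18.8 CPM in WT, 18.6 and 18.5 CPM in Mut18, and 13.0 and 11.9 CPM in Mut43 (log2 fold change between the clones -0.57, SE 0.0996, adjusted p = 0.0045 by edgeR). DESeq2 gave Tgfb2 no adjusted p-value in that comparison, so the call was made by edgeR alone. Tgfb1 was higher in Mut43 than in WT, by 0.56 (adjusted p = 5.4e-05), as was Tead4, by 0.37 (adjusted p = 0.036), whereas Tead2 was lower, at -0.65 (adjusted p = 1.3e-10).

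Targets of YAP and TEAD, another pathway that reads tension in the actin cytoskeleton, were mostly lower in both clones. Of 8 genes, 7 were called lower in each clone against WT (23.9% of all tested genes in Mut43 and 21.0% in Mut18) and none between the clones (5 at an unadjusted p under 0.05), and all 8 had a log2 fold change below 0 between the clones. Ctgf had 151.5 and 151.5 CPM in WT, 114 and 104 CPM in Mut18, and 97.2 and 95.8 CPM in Mut43 (log2 fold change of Mut43 against WT -0.65, adjusted p = 6.1e-11). Cyr61, like Ctgf a secreted matricellular protein, was at -0.79 (adjusted p = 7.2e-11), Amotl2, a feedback regulator of YAP, at -0.96 (adjusted p = 3.3e-13) and Ajuba at -0.59 (adjusted p = 2.9e-11). Ankrd1, a target also induced in strained muscle, was not called, at 0.24 in Mut43 (adjusted p = 0.282) and 0.27 in Mut18 (adjusted p = 0.235) against WT. In Mut18 the count of 7 was 4 without Mut18 replicate 1 and with DESeq2.

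The other matricellular genes went in both directions. Of 14 tested genes, 9 were called lower and 2 higher in Mut43 against WT (23.9% and 22.9% of all tested genes). None was called between the clones (2 at an unadjusted p under 0.05). The most abundant ones differed little: Fn1, which encodes fibronectin, was at 0.09 (adjusted p = 0.073), Sparc at -0.20 (adjusted p = 0.007) and Spp1, which encodes osteopontin, at 0.14 (adjusted p = 0.013) in Mut43 against WT. Fbln2, which encodes the matrix protein fibulin-2, had 48.2 and 47.2 CPM in WT and 18.2 and 16.9 CPM in Mut43 (log2 fold change -1.44, adjusted p = 3.2e-13). Smoc1, a secreted calcium-binding protein, was higher by 0.49 (adjusted p = 0.00017). Postn, which encodes periostin, fell by 2.31 (adjusted p = 2.8e-07), from 19.1 and 7.36 CPM in WT, where the first library stood above the second, to 2.64 and 2.69 CPM in Mut43.

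Of the 9 other intermediate filament and lamina genes, 3 were called lower and 3 higher in Mut43 against WT (23.9% and 22.9% of all tested genes). With 9 genes, nothing is read from these counts. Nes, which encodes nestin and copolymerises with vimentin, had the same order of the lines as Vim, with 175 and 163 CPM in WT, 64.6 and 66.2 CPM in Mut18, and 52.9 and 52.8 CPM in Mut43. Its log2 fold change was -0.31 between the clones (SE 0.059, adjusted p = 0.013). Krt8, an epithelial keratin, was at -0.37 in Mut43 against WT (adjusted p = 1.8e-05), and Krt19 and Plec, which encodes the linker plectin, at 0.29 and 0.30 (adjusted p = 0.03 and 2.0e-05). Lmnb1, of the nuclear lamina, was not called (-0.07, adjusted p = 0.23).

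Over these 6 lists together, 63 of 95 tested genes were called lower and 11 higher in Mut43 against WT, and 55 and 12 in Mut18. The shares over all tested genes were 23.9% lower and 22.9% higher in Mut43, and 21.0% and 20.3% in Mut18. Between the clones 4 were called, all lower (4.21%, compared with 0.327% of all genes): Tpm4, Zyx, Tgfb2 and Nes. Since the lists were chosen with earlier results of these data known, nothing is read from that comparison. That count was 5 without WT replicate 1, 0 without Mut18 replicate 1, without Mut43 replicate 1 and without Mut43 replicate 2, and 1 without Mut18 replicate 2.

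Markers of other cell types did not all move with the 10 genes. The summed level of 22 fibroblast markers was 534 and 386 CPM in WT, 314 and 301 CPM in Mut18, and 257 and 253 CPM in Mut43, the same order of the lines. Col1a1 made up the largest part of the step between the clones. In that comparison 13 of the 19 tested markers had a log2 fold change below 0, with a median of -0.223, and the others were above 0. Of the 19 tested, 14 were called lower and 0 higher in Mut43 against WT (23.9% and 22.9% of all tested genes). In Mut18 15 were called lower and 1 higher (21.0% and 20.3% of all tested genes). The higher one was Pcolce (0.17, adjusted p = 0.043 by edgeR). The gene called between the clones was Col1a1, which encodes a chain of collagen I, with 132 and 119 CPM in WT, 110.5 and 110.5 CPM in Mut18, and 82.0 and 84.2 CPM in Mut43 (log2 fold change between the clones -0.41, SE 0.0543, adjusted p = 0.00013). The other abundant markers, Col1a2 and Pcolce, were at -0.87 (adjusted p = 2.2e-06) and 0.15 (adjusted p = 0.068) in Mut43 against WT. Among the markers with a mean of at least 5 CPM, Col6a1 and Col3a1 fell most from WT in Mut43. Both stood apart in the first WT library, with 28.4 and 56.0 CPM there against 3.84 and 17.1 CPM in the second. Col6a1 was at 2.26 and 1.68 CPM in Mut18 and 1.96 and 1.42 CPM in Mut43, close to the floor in both clones. Some markers with similar levels in the 2 WT libraries were lower in both clones as well. Fbn1 had 24.57 and 21.35 CPM in WT, 11.1 and 11.15 CPM in Mut18, and 7.43 and 8.29 CPM in Mut43. Mmp2 had 37.5 and 39.7 CPM in WT, 28.5 and 28.75 CPM in Mut18, and 24.7 and 23.05 CPM in Mut43. In Mut43 against WT, 17 of the 19 tested markers had a log2 fold change below 0, and the others were above 0. Lum, Fap and Dpt, defining genes of fibroblasts, did not pass the filter, at 0 to 8.23 CPM with the highest value in the first WT library. In whole cultures, fewer cells of a type and less RNA per cell cannot be told apart, and the part that fibroblasts play in the levels of the 10 genes was not tested. Without the first WT library, the 10 genes had a median log2 fold change of -0.947 (Mut43) and -0.593 (Mut18) against WT, next to -0.962 and -0.609 with it.

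The markers of mesoderm and smooth muscle, 8 of 10 in the count table, summed to 36.7 and 34.1 CPM in WT. The sum was 17.49 and 18.14 CPM in Mut18 and 17.98 and 15.77 CPM in Mut43, or 50.3% and 47.7% of WT. That sum did not separate the clones, and its fall came from T and Kdr. Over the 5 tested markers the median log2 fold change in Mut43 against WT was 0.12, with 2 of the 5 below 0. The sum of the primitive endoderm markers was 101% and 102% of WT. Lama1, a laminin chain of primitive endoderm, rose by 1.35 on the log2 scale in Mut43 against WT (adjusted p = 2.4e-16), while Dab2 fell by 1.14 (adjusted p = 1.8e-08) and Col4a1 and Col4a2 fell by 0.62 and 0.43 (adjusted p = 0.00013 and 0.0022), with both collagens highest in the first WT library. Of 5 tested markers of mesoderm and smooth muscle, 2 were called lower and 1 higher in Mut43 against WT (23.9% and 22.9% of all tested genes). The lower ones were T (Brachyury), at 16.4 and 16.1 CPM in WT against 1.83 and 2.22 CPM, and Kdr, at 11.3 and 8.66 CPM against 3.18 and 2.63 CPM. The 1 called higher was Hand1, by 1.49 (adjusted p = 1.55e-05 by edgeR), and Tbx20 was at 0.12 (adjusted p = 0.58). Of 12 ESC markers, 9 were called higher and 2 lower in Mut43 against WT (22.9% and 23.9% of all tested genes). Zfp42 and Klf2 were at 0.79 and 0.71 (adjusted p = 5.9e-14 and 5.4e-11 by edgeR), and Pou5f1 and Utf1 at -0.28 and -0.20 (adjusted p = 8.2e-06 and 0.0033). Tdgf1, the most abundant, was at 0.12 (adjusted p = 0.015). None of these 3 lists had a gene called between the clones. At an unadjusted p under 0.05 there were 3 primitive endoderm markers, 1 marker of mesoderm and smooth muscle and 2 ESC markers.

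**Figure D3:**
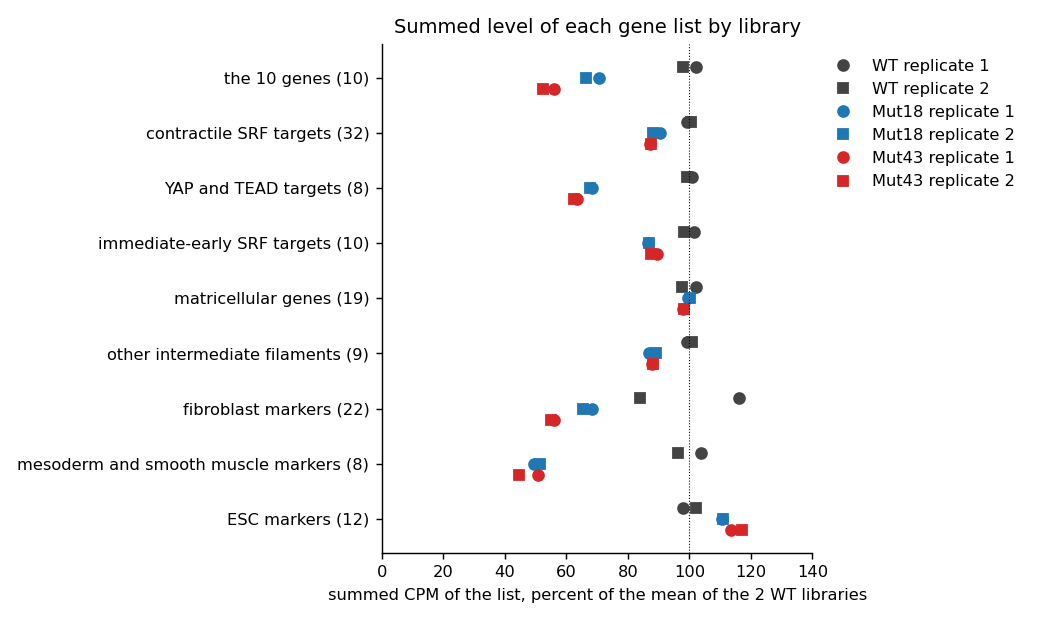
Summed CPM of the 10 genes and of the gene lists in each library, as a percent of the mean of the 2 WT libraries, with the number of genes in the table in brackets. The sum over the 10 genes was 68.5% of WT in Mut18 and 54.3% in Mut43. In Mut43 the YAP and TEAD targets and the fibroblast markers lay at 62.9% and 55.4%, and the mesoderm and smooth muscle markers at 47.7% (through T and Kdr). The other matricellular genes lay at 98.1%, a sum made up mostly of Fn1, Sparc and Spp1. Of the 14 tested genes of that list, 9 were called lower and 2 higher in Mut43 against WT, with a median log2 fold change of -0.359.

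The genes whose pattern over the 6 libraries was most like the mean of the 10 genes were sought among 10349 other genes with a mean of at least 5 CPM. The 8 with the highest Pearson r were Parva (0.998), Shisa5, Cxcl12, Pdgfc, Mcc, Sdc2, Dmtn and Tomm40l (0.997). The 6 points come from 3 lines, so that any gene with the order WT, Mut18, Mut43 scores high, and 12.3% of the candidates had an r above 0.9. Parva, which encodes the focal adhesion protein alpha-parvin, had 35.3 and 33.6 CPM in WT, 24.2 and 20.8 CPM in Mut18, and 17.2 and 15.9 CPM in Mut43. Dmtn encodes dematin, an actin-bundling protein, Cxcl12 a chemokine, Pdgfc a growth factor and Sdc2 a transmembrane proteoglycan. The amplitude differed between them, from a log2 fold change of -0.36 in Shisa5 to -1.37 in Cxcl12 for Mut43 against WT.

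ATAC-seq, which marks open chromatin by the insertions of a transposase, was not used to pick the genes and allows tests of its own. The 6 peak lists, of 63588 to 78536 peaks, merged into 89596 regions, of which 33 lay within 10000 bp of the 10 genes. Of these, 24 had a peak in all 6 libraries (72.7%), compared with 54.7% of all regions. A peak within 1000 bp of a transcript start was present in all 6 libraries for 8 of the 10 genes, compared with 87.5% of 13027 tested genes. Acta2 and Cnn2 had none in any library. Among 4073 genes with a mean of at least 50 CPM, as Acta2 and Cnn2 have, 45 had no such peak (1.1%). The nearest Acta2 regions were a weak intronic peak of the second WT library and a region beyond the end of the gene, at 7.99 to 9.49-fold enrichment in the 6 libraries. The regions nearest to Cnn2 in all 6 libraries lie at the starts of its neighbours Abca7 and Tmem259, and the CArG box printed for Cnn2 lies in none of them.

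At the promoters the 3 lines gave similar fold enrichment, the ratio of a peak's signal to its local background. At the Tagln start, the region with both CArG boxes, WT had 5.96 and 6.84, Mut18 had 6.10 and 6.22, and Mut43 had 5.31 and 6.35. The libraries of the lines overlapped, and the log2 difference between Mut43 and WT was -0.15 (95% interval -0.416 to 0.108). Around the Myl9 start, with its CArG box, WT had 7.42 and 8.69, Mut18 had 7.34 and 8.37, and Mut43 had 6.19 and 6.55. There both Mut43 libraries lay below the other 4, with a log2 difference of -0.35 against WT (95% interval -0.617 to -0.0870, adjusted p = 0.235 by limma) and of -0.30 against Mut18 (95% interval -0.569 to -0.0393, adjusted p = 0.881). At the Vim start WT had 4.81 and 5.60, Mut18 had 5.53 and 4.97, and Mut43 had 5.71 and 6.46. Both Mut43 libraries lay above the other 4, with a log2 difference of 0.21 against WT (95% interval -0.0444 to 0.462). The Tnc start showed the same order, with 9.45 and 8.78 in WT, 9.69 and 8.78 for Mut18, and 10.9 and 10.1 for Mut43. At the other promoter regions with a peak in all 6 libraries, Mut43 overlapped the other 4 libraries. The share of all regions where both Mut43 libraries lay above or below the other 4 was not counted. Nothing is therefore read from these orders.

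Of the 24 regions near the 10 genes with a peak in all 6 libraries, none was called in any of the 3 comparisons (limma with Benjamini-Hochberg adjustment over 48984 regions), with 2 regions at an unadjusted p under 0.05 in each. None was called under the alternatives tried either. Over all 48984 regions, 236 were called in Mut43 (0.482%) and 131 in Mut18 (0.267%) against WT, and 0 between the clones, where 2662 regions had an unadjusted p under 0.05. The count of 236 was 2 without WT replicate 1, 1 without WT replicate 2, 44 without Mut43 replicate 1 and 3 without Mut43 replicate 2. The count of 131 was 2, 1, 0 and 0 without each of the WT and Mut18 libraries, and 211 without Mut43 replicate 1. The median log2 difference of the 24 regions was -0.0698 between the clones, -0.0448 in Mut43 and 0.00579 in Mut18 against WT, next to 0.000492, 0.0198 and 0.0192 over all regions.

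**Figure D4:**
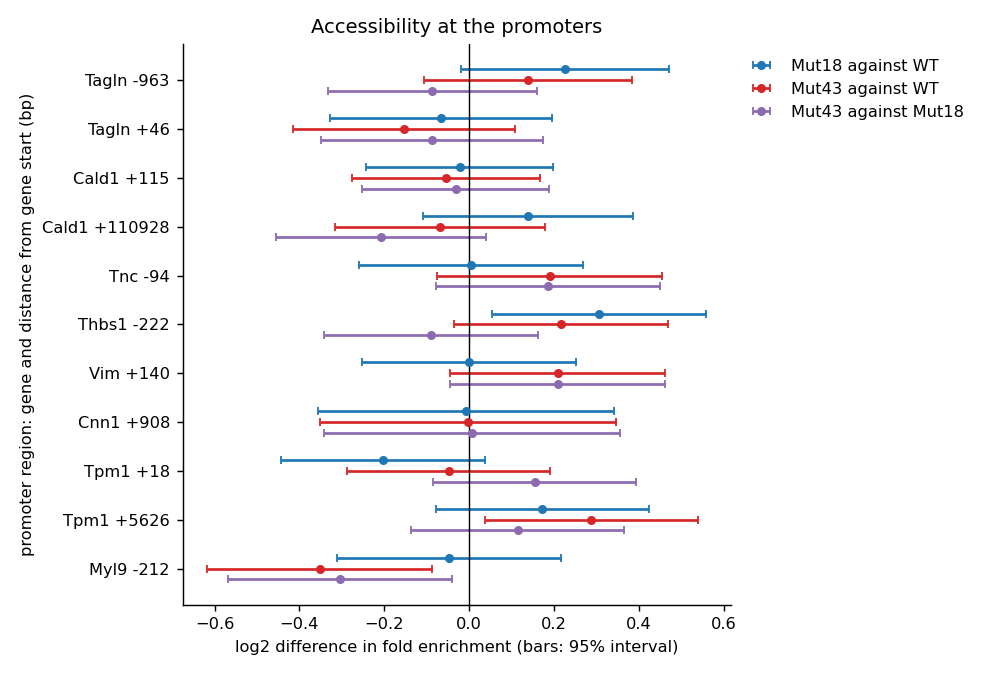
Log2 difference in ATAC-seq fold enrichment (points, with 95% intervals as bars) at the promoter regions with a peak in all 6 libraries. Most intervals include 0, and those of Myl9 (Mut43 against WT and against Mut18), Thbs1 (Mut18 against WT) and the internal Tpm1 start (Mut43 against WT) do not before adjustment.

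Peaks that were present in both WT libraries and in no mutant library were found at 4 of the 33 regions (12.1%), compared with 2913 of all 89596 regions (3.25%). They lay upstream of Thbs1, centred at -1124 bp from its start, in Myl9, 5568 bp after the start and partly in an exon, and at 2 places in introns of Tnc, 35530 and 74954 bp after the start of the gene. Fold enrichment in WT was 5.56 and 4.82 at the Thbs1 region, 4.21 and 4.85 at the Myl9 region, 6.66 and 7.20 at the first Tnc region and 5.05 and 6.87 at the other. Their -log10 q was 8.30 to 21.4, where the lists begin at 6. The Thbs1 region holds the CArG box printed above. The opposite pattern, 4 mutant libraries and no WT library, was found at 1 region (3.03%, compared with 0.733% of all regions), in an intron of Cald1, where Mut18 had a fold enrichment of 9.29 and 7.96 and Mut43 of 10.1 and 7.65. A missing peak says that the caller's limit was not reached, and the number of reads behind the lists is not given in the files. The WT libraries had 78536 and 67416 peaks and the mutant libraries 63588 to 69811, and the part of this difference in the pattern was not tested.

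The shorter Tnc region and the Cald1 region are printed as the intronic sequences that differed in this way, on the strand of the gene, from GRCm38. Nothing is in capitals because neither holds a CArG box, the letters TGANTCA (AP-1 motif) or GGAATG on either strand. Over all regions 8.88% held TGANTCA and 16.7% GGAATG within 300 bases, and over the regions with the WT-only pattern 13.0% and 23.7%.
Tnc, chr4:64011413-64011557, minus strand, peaks in both WT libraries: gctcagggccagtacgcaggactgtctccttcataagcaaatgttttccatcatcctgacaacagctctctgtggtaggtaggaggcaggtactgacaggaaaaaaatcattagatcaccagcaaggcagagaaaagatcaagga
Cald1, chr6:34673606-34673816, plus strand, peaks in all 4 mutant libraries: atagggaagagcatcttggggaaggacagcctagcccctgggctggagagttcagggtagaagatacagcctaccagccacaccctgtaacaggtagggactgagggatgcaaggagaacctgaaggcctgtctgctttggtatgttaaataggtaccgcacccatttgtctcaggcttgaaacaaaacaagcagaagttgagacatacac

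**Figure D5:**
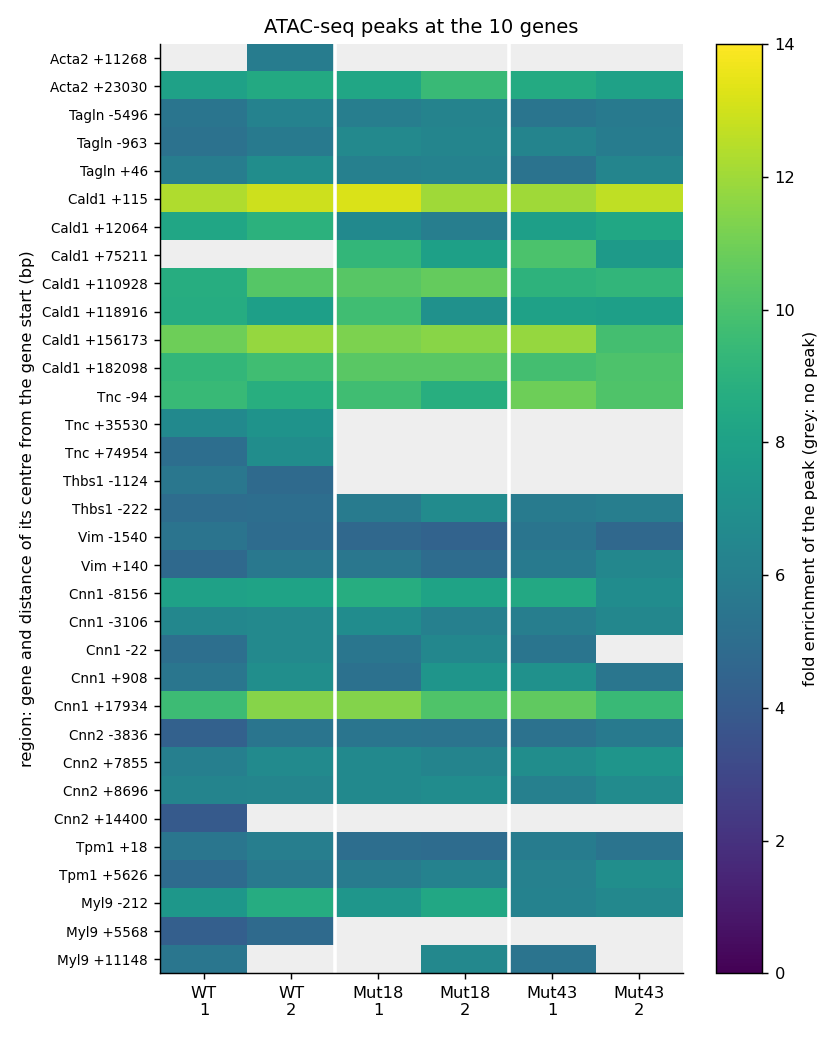
Fold enrichment of the ATAC-seq peak in each of the 33 regions near the 10 genes (rows, named by gene and distance of the region's centre from the gene's start) in the 6 libraries (columns), with grey where no peak was listed. The 4 regions with colour in the WT columns alone are 2 of Tnc and 1 each of Thbs1 and Myl9, and 1 Cald1 region is coloured in the 4 mutant columns alone.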

How the data were processed

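The authors deposited 1 table of whole-number read counts per gene from mRNA-seq (16263 genes, 6 libraries, not normalized) and 6 ATAC-seq peak lists with a fold enrichment (a linear ratio) and a -log10 q per peak, replicates not pooled. Reads were mapped to mm10. The submitters' processing notes name STAR, Bowtie2 2.3.4.2, MACS2 and DESeq2, but give no role or order, and the gene annotation, the counting program and the use of strand are not given in the sources used here. The ChIP-seq samples were not analysed here.

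The deposited counts were tested with edgeR 4.0.16 under R 4.3.3 (filter at a minimum count of 10 and a total of 15, TMM, quasi-likelihood F-test over all 6 libraries with 3 lines, Benjamini-Hochberg adjustment, called under 0.05). ATAC-seq peaks overlapping by at least 1 bp were merged, and log2 fold enrichment, centred on library medians, was tested with limma 3.58.1 in regions with a peak in all 6 libraries. Within 1000 bp of a coding transcript start (GENCODE, GRCm38, the build of mm10) a peak counted as at the promoter. Of the symbols, 15644 matched GENCODE directly and 566 through RefSeq. Both procedures were tested on simulated data. P-values measure the spread between 2 libraries of a line, which differed by more than counting error (chi-square 1.83 to 3.34 per gene).

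The 10 genes and the gene lists were chosen with earlier results of these data known. Genes named from the lists are those called between the clones, the 3 with the highest mean CPM, and the 2 with the largest change in each direction among those called in Mut43 against WT with at least 5 CPM; the paralogs, H3f3a and H3f3b, and the 8 genes most like the 10 were added by rule. Fos, Fosb, Mkl1, Mkl2, Myh11, Smtn, Ankrd1, Mylk, Myocd, Lum, Fap, Dpt, Fbn1, Mmp2 and Hand1 fall outside the rule and were named after their values were seen. Diaph1, Tnr, Mesp1 and Tcf21 of the lists had no row under that symbol in the count table. The main tests did not treat replicate numbers as pairs.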

Additional observations from a re-analysis of the deposited data

Results flagged for a closer look

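For 5 genes of the lists the difference from WT was not the same in Mut18 and Mut43, by edgeR's quasi-likelihood test of Mut43 against Mut18, which compares 2 single clones. The log2 fold change was -0.28 for Tpm4, -0.44 for Zyx, -0.57 for Tgfb2, -0.31 for Nes and -0.41 for Col1a1. All 5 had both Mut43 libraries below both Mut18 libraries, as had 19.4% of all tested genes. Genes called lower with 2 libraries per line are nearly bound to have that order, so nothing is read from it. With Mut18 replicate 1, Mut43 replicate 1 or Mut43 replicate 2 left out, none of the 5 was called, with adjusted p-values of 0.0601 to 0.454. Without Mut18 replicate 2, Zyx and Col1a1 were called and the others were not. Each line gave 2 libraries, too few to search for libraries that lie far from the rest of their group.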

How the results depend on the processing

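For the 10 genes, 365 of 390 recomputed log2 fold changes moved by less than the spread between replicates, 25 moved by more and none changed sign. Of 13027 genes the promoter peak shares were 85.1 to 89.8%, and the count of 8 of the 10 genes was the same in all settings. Called genes between the clones were 46, and 25 with DESeq2, 24 with no filter on low counts, 76 with only the lines compared and 1 for a change of more than 2-fold. Leaving out a library gave 3 to 70 genes, 0 to 5 companion genes (the 6 lists other than cell type markers) and 0 to 2 fibroblast markers. The 2-fold limit left 0 companion genes and 0 fibroblast markers between the clones. Fibroblast markers called between the clones, 1 in the report, were 2 with the replicate block and with only the lines compared, and 0 without chromosome 11, which carries Col1a1. Against WT, DESeq2 called 4297 genes in Mut43 and 3537 in Mut18. The 2-fold limit left 1448 and 1058 genes, 15 and 13 companion genes, and 9 fibroblast markers in Mut18. A filter at a mean of 5 CPM left 9 and 10 fibroblast markers. ATAC-seq regions called in Mut43 and Mut18 were 1033 and 811 with -log10 q as the value, 377 and 218 with the replicate block, 1 to 234 and 0 to 211 with a library left out. Over 10359 genes, the differences between replicates 1 and 2 were almost uncorrelated between lines (r -0.0948 to 0.0209). Most of the 10 genes were higher in replicate 1 than in replicate 2 in each line, so whether the replicates pair was not settled. With the block 38 genes were called between the clones, 6 of them among the 10. The causes of these changes were not tested. With 2 libraries per line, calls between the clones depended on single libraries, and the number of reads behind the ATAC-seq values is unknown.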
